A study of Homo sapiens with 6 samples.

Results

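The regions described here were the H3K4me3 regions at transcription start sites (TSSs) that were called in HSC3 cells after DLEU1 knockdown and not in control cells. HSC3 is an established oral squamous cell carcinoma cell line. A region of the siDLEU1 H3K4me3 list was taken when it lay on chromosomes 1 to 22 or X, overlapped the 1 kb on either side of a TSS of a GENCODE protein-coding or lncRNA gene, and was overlapped by no region of the siCONT H3K4me3 list. Of the 56943 regions of the siDLEU1 list, 22205 lay at a TSS, and 1999 of these were siDLEU1-only (9% of the TSS regions, 95% Wilson interval 8.63 to 9.39). These regions were selected on the H3K4me3 calls of both lists, so their number and their H3K4me3 values are a description and were not tested.

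The cells were transfected with siDLEU1-2, a small interfering RNA against the lncRNA DLEU1 (deleted in lymphocytic leukemia 1), or with a control siRNA, and were collected 72 h later. ChIP-seq for H3K4me3 and H3K27ac gave 1 list of called regions for each siRNA and mark, 4 lists in all. There was therefore 1 cell line, 1 siRNA against DLEU1 and 1 library in each group, so differences between the lists could not be set against a spread between replicates and were not tested. Off-target effects of the siRNA cannot be told apart from loss of DLEU1, and the depth of the knockdown cannot be read from lists of chromatin regions.

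H3K4me3 is deposited around the start of genes that are transcribed or held ready for transcription, and its broadest and strongest regions usually lie over CpG islands. H3K27ac marks active promoters and enhancers, and a TSS with H3K4me3 but no H3K27ac is often weakly transcribed or silent. In squamous epithelium, basal cells express keratins and cadherins that hold the sheet together, and cells that differentiate switch on the proteins of the cornified envelope.

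The siCONT H3K4me3 list held 58582 regions, and the H3K27ac lists held 19705 regions in siCONT cells and 17672 in siDLEU1 cells. The number of fragments at each summit was recovered from the fold enrichment and the p of the region. Relative library sizes were estimated from the factor that scales the fragments of a list, its lowest local background and its shortest region. The estimate takes the shortest width as the fragment length and the lowest background as that of the whole genome, which was not checked. By this estimate the siDLEU1 H3K4me3 library had 0.785 of the reads of the siCONT one, and the siDLEU1 H3K27ac library 1.37 times those of its siCONT counterpart. The weakest region called rested on 14 fragments in the siDLEU1 H3K4me3 list and on 17 in the siCONT list, and in the H3K27ac lists on 19 and 13. Fragment numbers are given as recovered and were not scaled for depth. Estimated depth and the calling threshold therefore differed between the lists, and their part in the results was not tested. As a check of the cell type, H3K4me3 at a TSS in siCONT cells was counted in 3 gene lists. It was at 36 of 48 squamous epithelial genes (75%), 9 of 27 fibroblast genes (33.3%) and 5 of 26 blood and endothelial cell genes (19.2%). Over all 20098 protein-coding genes it was at 12294 (61.2%).

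Sequences around the summits of 5 siDLEU1-only regions are shown because they run from CpG-free to CpG-rich. Each is 201 bases of GRCh37 (hg19) centred on the summit, 5′ to 3′ on the strand of the gene, with CpG dinucleotides in capitals. None of the windows overlaps an annotated exon. The CDH1 window (chr16:68835886-68836086, plus strand, intronic beside an internal TSS) holds 0 CpGs, and the CDH3 window (chr16:68670536-68670736, plus strand, intronic beside an alternative upstream TSS) holds 2. The MGAT5B window (chr17:74864059-74864259, plus strand, upstream of the gene) holds 9. The DHRS4L2 window (chr14:24438851-24439051, plus strand, in an intron of DHRS4-AS1) and the TIAL1 window (chr10:121356808-121357008, minus strand, upstream of the gene) hold 16 each.
CDH1: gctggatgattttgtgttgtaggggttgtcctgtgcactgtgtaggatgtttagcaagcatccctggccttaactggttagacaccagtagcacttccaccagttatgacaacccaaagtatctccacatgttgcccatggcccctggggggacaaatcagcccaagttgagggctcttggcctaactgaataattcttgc
CDH3: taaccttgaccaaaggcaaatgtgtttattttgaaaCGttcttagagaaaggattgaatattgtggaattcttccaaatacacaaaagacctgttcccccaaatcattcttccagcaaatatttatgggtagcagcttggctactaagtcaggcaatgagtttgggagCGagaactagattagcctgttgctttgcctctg
MGAT5B: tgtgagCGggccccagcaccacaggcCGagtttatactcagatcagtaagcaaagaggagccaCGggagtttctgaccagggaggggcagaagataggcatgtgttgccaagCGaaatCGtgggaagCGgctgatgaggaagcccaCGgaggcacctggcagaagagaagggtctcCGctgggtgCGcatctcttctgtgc
DHRS4L2: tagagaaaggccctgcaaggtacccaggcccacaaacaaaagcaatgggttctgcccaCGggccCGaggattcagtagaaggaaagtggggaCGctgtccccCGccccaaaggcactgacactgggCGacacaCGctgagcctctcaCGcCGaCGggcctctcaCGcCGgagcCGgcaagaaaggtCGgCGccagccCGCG
TIAL1: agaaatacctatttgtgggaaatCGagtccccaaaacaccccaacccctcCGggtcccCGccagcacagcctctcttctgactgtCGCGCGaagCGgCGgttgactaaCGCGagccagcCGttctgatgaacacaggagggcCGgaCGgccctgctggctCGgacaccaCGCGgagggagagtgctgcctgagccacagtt

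Most siDLEU1-only TSS regions were narrow and weak. Their median width was 282 bp (quartiles 221 and 391), against 708 bp (425 and 1195) for the 20206 TSS regions shared with the siCONT list. A siDLEU1-only region had a median of 26 fragments at its summit (range 15 to 114), and a shared one had 66. The fold enrichment of one list is not on the scale of another, and it was expressed as the percentile rank within its list, from 0 for the weakest region to nearly 100 for the strongest. The median percentile was 26.8 for siDLEU1-only regions and 72.6 for shared ones. Of the siDLEU1-only regions, 56 had 17 fragments or fewer, which is no more than the weakest call of the siCONT list.

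The mirror group, 3085 regions at TSSs called in siCONT and not in siDLEU1 cells (13% of 23820), was of the same kind, with a median width of 303 bp, 29 fragments and a percentile of 24.0. Away from TSSs, 29% of the 34738 siDLEU1 H3K4me3 regions were siDLEU1-only, and over all places the share was 21.2%. When both lists were restricted to regions with a −log10 q of at least 10, 1897 siDLEU1 and 1442 siCONT TSS regions had no overlap in the other list, so the order of these numbers reversed with the threshold. These are largely other regions, since 214 of the 1999 siDLEU1-only regions reached that q, and the rest of the 1897 were overlapped by a siCONT region with a lower −log10 q.

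The siDLEU1-only share fell steeply with strength. In the lowest decile of fold enrichment among siDLEU1 TSS regions, 33.7% were siDLEU1-only, and in the fifth decile 3.52% were. Deciles 6 to 9 held 22, 12, 6 and 1 such regions, and the top decile held 0 of 2218.

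**Figure D1:**
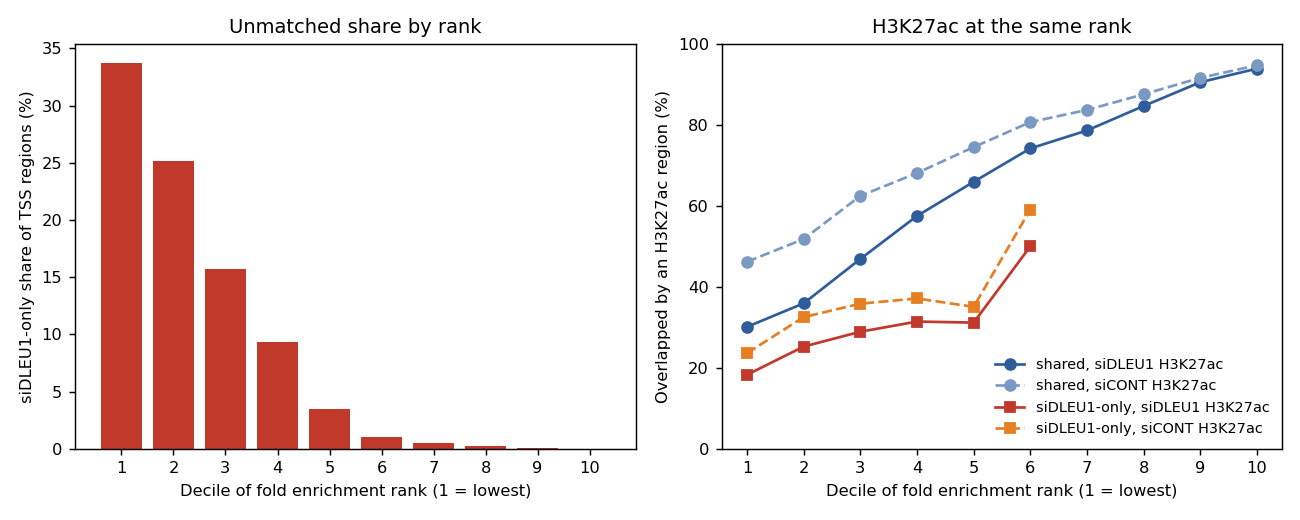
The left panel plots the share (%) of siDLEU1 TSS H3K4me3 regions that were siDLEU1-only by decile of fold enrichment, from 33.7% in the lowest to 0 in the highest, and the right panel plots the share (%) of siDLEU1-only (squares) and shared (circles) regions overlapped by H3K27ac in each list. Deciles with under 20 siDLEU1-only regions are left out on the right, and the siDLEU1-only points lie below the shared points of the same list in each decile drawn.

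A large share of the siDLEU1-only regions lay beside a region that control cells also had. Of the 1999 regions, 1053 (52.7%, 50.5 to 54.9) lay within 1 kb of a siCONT H3K4me3 region, 232 between 1 and 5 kb, and 714 (35.7%) over 5 kb away, 198 of these over 50 kb away. Among the 1053 flanking regions the median gap was 241 bp, and 944 had a neighbour that was itself overlapped by another siDLEU1 region. These 944 are therefore separate pieces beside a shared H3K4me3 region. The siCONT-only regions had a similar split, with 1818 of 3085 (58.9%) within 1 kb and 864 (28.0%) over 5 kb from a siDLEU1 region.

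**Figure D2:**
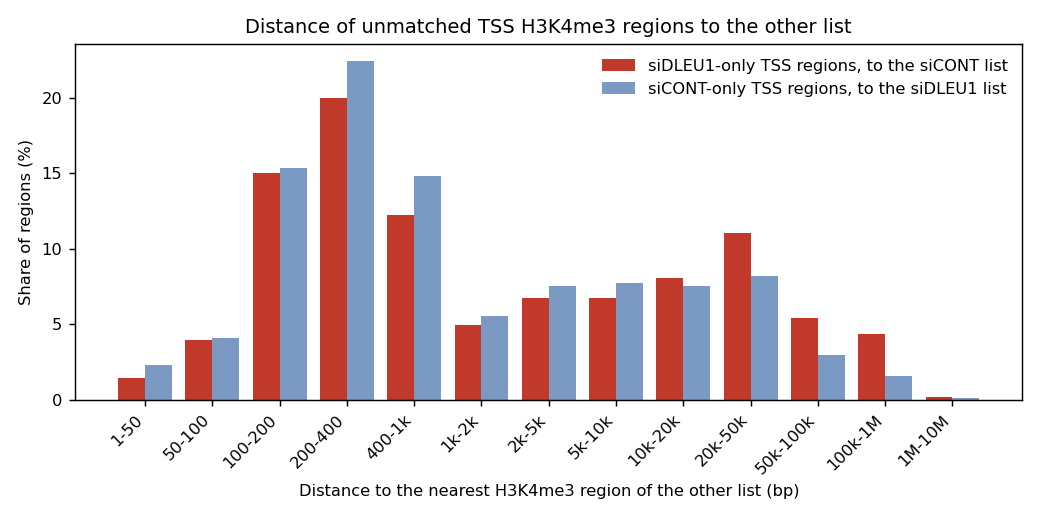
Bars give the share (%) of 1999 siDLEU1-only TSS regions (red) and 3085 siCONT-only TSS regions (blue) in bins of distance (bp) to the nearest H3K4me3 region of the other list, with bins of unequal width. The bin from 200 to 400 bp is the fullest in both groups, with 19.96% and 22.4%.

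The rule admitted or left out some regions by a few bases. The regions nearest RERE, MYEOV and DLG5 were siDLEU1-only with 1, 2 and 3 bases between them and a siCONT region. Regions nearest PGLYRP4, KDM2A and NMRAL1 were shared with overlaps of 1, 1 and 2 bp. In all, 31 siDLEU1-only regions had at most 50 bases between them and a siCONT region, and 25 shared regions had an overlap of at most 50 bp.

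Fewer siDLEU1-only regions sat on the TSS itself. A TSS lay inside 490 of them (24.5%, 22.7 to 26.4), against 61.4% of the shared regions, and inside 22.1% of the siCONT-only regions. Weaker regions are narrower, and when the shared regions were weighted to the strength deciles of the siDLEU1-only ones, the shared figure was 30.3%. The summit lay upstream of the nearest TSS in 47.3% of siDLEU1-only and in 35.3% of shared regions. Its median distance to that TSS in either direction was 301 bp and 200 bp, in the same order.

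The nearest TSS belonged to a protein-coding gene in 1451 siDLEU1-only regions (72.6%, 70.6 to 74.5) and to a lncRNA in the other 548. Among shared regions 81.8% were nearest a protein-coding TSS. Summits lay in introns in 999 siDLEU1-only regions (49.98%), outside genes in 334, in non-coding exons in 229, in 5′ UTRs in 215 (10.8%), in coding exons in 188 and in 3′ UTRs in 34. Among shared regions the intronic share was 43.0% and the 5′ UTR share 17.6%. Many of the TSSs were alternative starts, since with 1 TSS for each gene the number of siDLEU1-only regions fell to 1227.

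**Figure D3:**
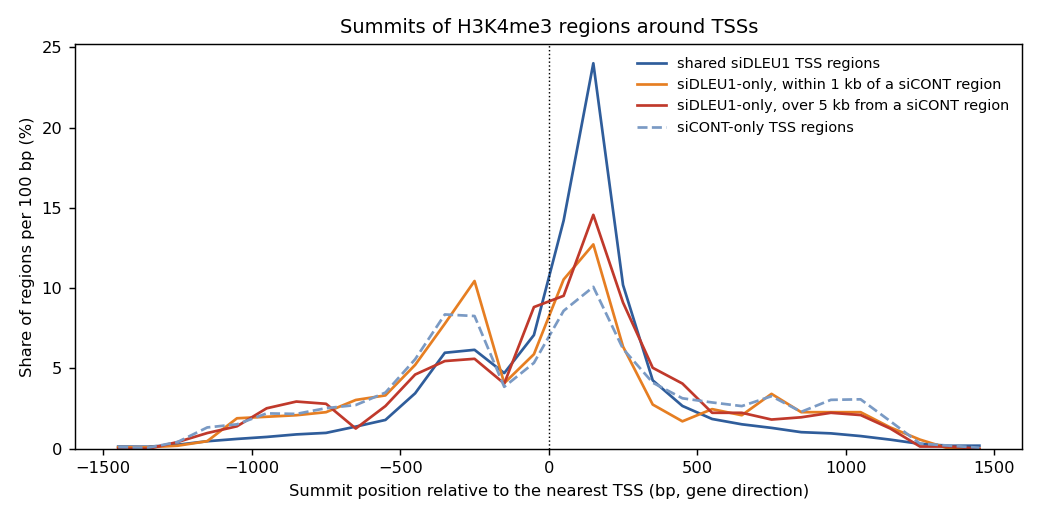
Lines give the share (%) of summits per 100 bp by position relative to the nearest TSS (bp, positive downstream) for shared, flanking siDLEU1-only, distant siDLEU1-only and siCONT-only TSS regions. All peak between 100 and 200 bp downstream of the TSS, and a lower peak lies about 200 to 400 bp upstream, which reaches its highest value among the flanking regions.

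Among siDLEU1-only regions over 5 kb from any siCONT H3K4me3 region, the top place was taken by a pair of regions at the lncRNA ENSG00000226455, whose summits lie in a coding exon of BACH2, a transcription factor gene of lymphoid cells. The stronger of the pair (chr6:90660110-90660906) was 797 bp wide with 104 fragments at its summit and stood at the 91.5th percentile of the list. The other (chr6:90661049-90662094) had 93 fragments, and the nearest siCONT region was 120 kb away. Neither had H3K27ac in either list.

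NLRP10, a NOD-like receptor gene, had 3 siDLEU1-only regions and no siCONT H3K4me3 region at its TSS. The main one (chr11:7986644-7987873, summit in the 5′ UTR, 157 bp downstream of the TSS) was 1230 bp wide with 85 fragments, stood at the 84.5th percentile, and lay 20.4 kb from the nearest siCONT region. MGAT5B, a glycosyltransferase gene that branches O-mannosyl glycans, had 4 siDLEU1 regions and none in siCONT cells. Its strongest region (chr17:74863146-74864419), whose summit sequence is given above, had 77 fragments, and the nearest siCONT region was 75.3 kb away. No H3K27ac region overlapped the TSS window of NLRP10 or MGAT5B in either list.

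ETV4, which encodes an ETS family transcription factor, had 2 of the widest siDLEU1-only regions at different starts of the gene. The upstream one (chr17:41655503-41657563, summit in the 5′ UTR) was 2061 bp wide with 80 fragments and had no H3K27ac. The downstream one (chr17:41622087-41623744, summit in a coding exon) was 1658 bp wide with 61 fragments, and H3K27ac regions overlapped it in both lists, at percentile 16.5 in siCONT and 16.4 in siDLEU1 cells. ETV4 had no siCONT H3K4me3 region at any annotated TSS.

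Other distant regions among the strongest were at ENSG00000235146, a lncRNA (chr1:522943-524110, 77 fragments), and at C1orf226 (chr1:162351549-162352267, 81 fragments, 30.0 kb from a siCONT region). LINC01133, a lncRNA gene, had a region of 1577 bp with 66 fragments over its TSS (chr1:159930083-159931659). KAT14, which encodes a subunit of the ATAC histone acetyltransferase complex, had a region with 67 fragments at an internal TSS (chr20:18125686-18126509), 6.34 kb from the nearest siCONT region. None of these regions had H3K27ac.

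Many fragments did not always go with a high enrichment. The region with the most fragments of all, 114, lay in DHX32, a helicase-family gene (chr10:127583933-127584675). Its fold enrichment was 5.05 over a local background of 6, where the lowest background in the list was 0.463, and it stood at percentile 21.2. The background is on the scale of the MACS2 control, on which each fragment of this list counts as 0.301. It therefore cannot be set directly against the 114 fragments. The lncRNA ENSG00000283061 (chr7:23920-24535) had 87 fragments, with a local background of 4 on that scale.

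Within 5 kb of siCONT regions, strong siDLEU1-only regions lay beside control H3K4me3 of different strength. TGM1, whose transglutaminase crosslinks the cornified envelope of keratinocytes, had 2 weak siCONT regions upstream of its TSS, the higher one with 27 fragments at percentile 10.3. In siDLEU1 cells a region of 3965 bp with 186 fragments (percentile 97.4) covered these and the TSS. Downstream of it lay the widest siDLEU1-only region of all (chr14:24727778-24730456), 2679 bp wide with 95 fragments and a summit in a coding exon, and between them a weaker siDLEU1-only one with 26 fragments. No H3K27ac region was called at a TGM1 TSS in either list.

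ARL14, which encodes a small GTPase of the ARF-like family, had a siDLEU1-only region of 820 bp with 70 fragments upstream of its TSS. It lay 203 bases from a siCONT region of 453 bp with 40 fragments. At CLCA2, which encodes a regulator of chloride conductance in epithelia, a siDLEU1-only region of 761 bp with 69 fragments covered the TSS (chr1:86889826-86890586). The siCONT region beside it ended 194 bp upstream of the TSS. H3K27ac was called at the TSS of neither gene.

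EFNB2 and SPIN1 differed from these genes in carrying strong H3K4me3 in both lists. EFNB2, which encodes the Eph receptor ligand ephrin-B2, had a siDLEU1-only piece of 329 bp with 85 fragments in its 5′ UTR (chr13:107187646-107187974), 184 bases from a siCONT region with 103 fragments. H3K27ac overlapped the EFNB2 piece in both lists, with 95 fragments in siCONT and 81 in siDLEU1 cells. SPIN1, which encodes a reader of H3K4me3, had a piece of 291 bp with 82 fragments (chr9:91003291-91003581), beside a siCONT region with 192 fragments. An H3K27ac region with 23 fragments overlapped the SPIN1 piece in siCONT cells, and none did in siDLEU1 cells.

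**Figure D4:**
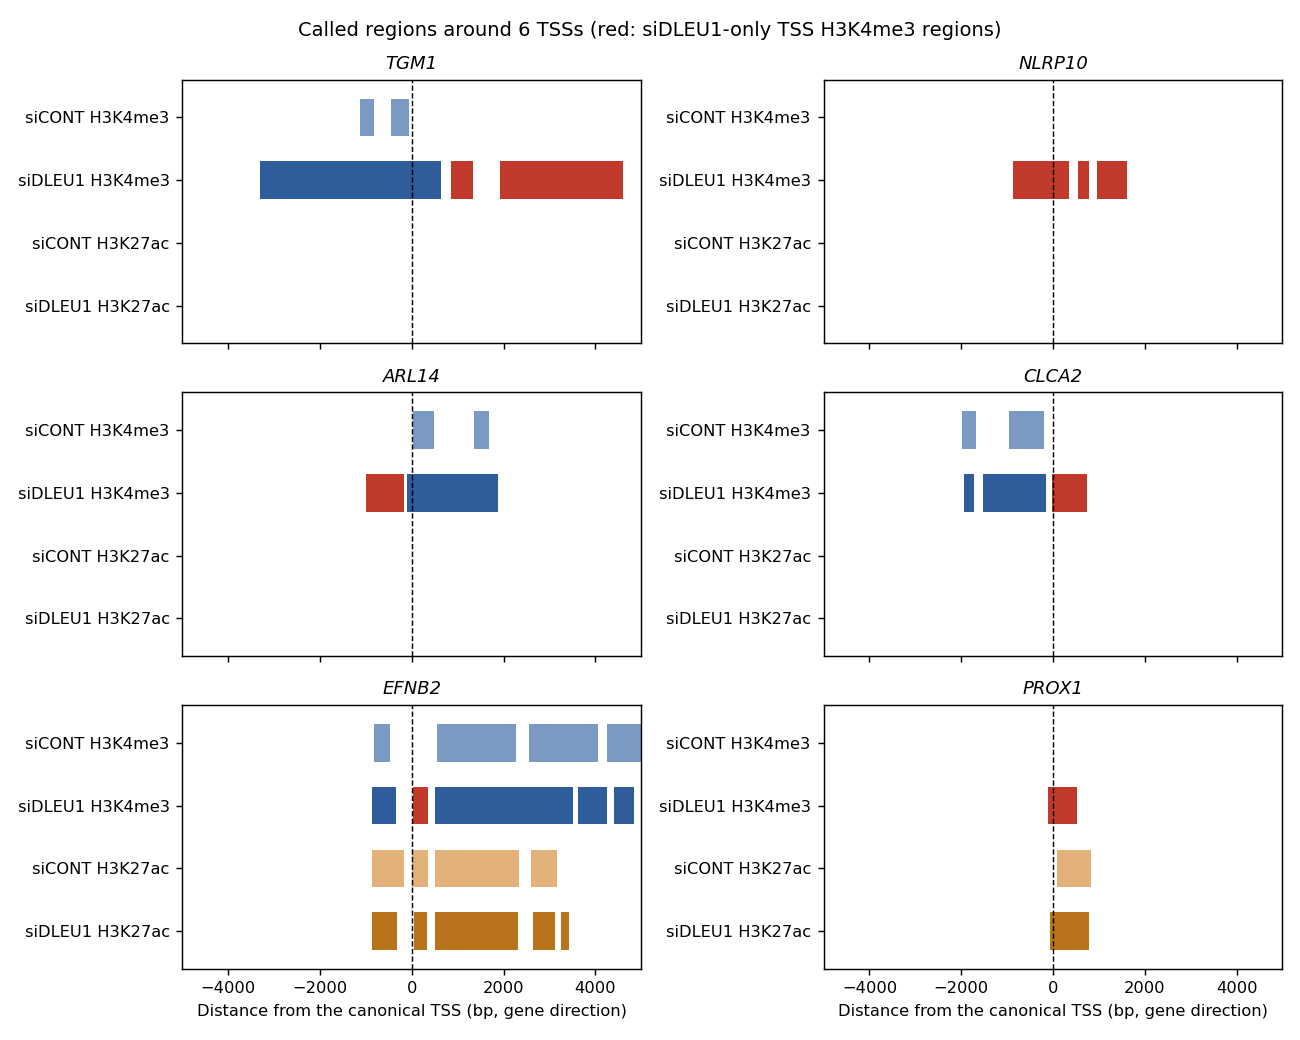
Bars show the regions of the 4 lists within 5000 bp of the canonical TSS of 6 genes (x axis, bp in the direction of the gene), with siDLEU1-only TSS H3K4me3 regions in red. At NLRP10 and PROX1 the siCONT H3K4me3 lane is empty, at TGM1, ARL14, CLCA2 and EFNB2 the red regions lie beside H3K4me3 called in both lists, and PROX1 and EFNB2 alone of the 6 have H3K27ac bars.

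The gene groups were read against all protein-coding genes, of which 1405 of 20098 (6.99%) had a siDLEU1-only region within 1 kb of a TSS, 2337 (11.6%) had a siCONT-only region, 299 had H3K4me3 in siDLEU1 cells alone and 377 in siCONT cells alone. Over all 38690 genes, lncRNAs included, 2012 (5.2%) had a siDLEU1-only region, which is 11.9% of the 16862 genes with any siDLEU1 H3K4me3 region. The lists were not tested as sets.

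Of 48 squamous epithelial genes, 13 (27.1%) had a siDLEU1-only region and 11 (22.9%) a siCONT-only one. Among the 13 were TGM1, CDH1, CDH3, GRHL1, GRHL3, ITGA6, KRT5, KRT8, KRT15, KRT16, OVOL1 and SPRR1B, and the 13 genes had 18 regions between them. At most of these genes the region was a minor piece, with a median of 25 fragments, and the gene had a stronger region in both lists. KRT5, a basal keratin gene, had a piece with 26 fragments at percentile 28.1, where its strongest region stood at percentile 98.2 in siCONT and 94.1 in siDLEU1 cells.

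After TGM1, the squamous pieces with the highest fold enrichment were at the cadherins and a keratin. CDH3, which encodes P-cadherin, had a region of 1316 bp with 44 fragments over an alternative upstream TSS (chr16:68669630-68670945). CDH1, which encodes E-cadherin, had 3 regions around an internal TSS, the strongest with 45 fragments (chr16:68835588-68836205). KRT16, a keratin gene induced in wounded and hyperproliferative epidermis, had a region with 51 fragments over an alternative TSS (chr17:39771925-39772350) and another with 21. No H3K27ac region overlapped any of these pieces. Elsewhere at a TSS, H3K27ac stood at percentile 80.2 in siCONT and 85.4 in siDLEU1 cells at CDH1, and at 86.7 and 88.0 at CDH3. KRT16 had no H3K27ac at a TSS in either list.

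GRHL1, a transcription factor gene of epidermal differentiation, and SPRR1B, which encodes a cornified envelope precursor, had H3K4me3 in siDLEU1 cells alone, with 24 and 23 fragments. Both values lie under the median of the siDLEU1-only regions. The GRHL1 region had H3K27ac in both lists and the SPRR1B region had none.

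Of 161 homeobox transcription factor genes, 13 (8.07%) had a siDLEU1-only region and 8 (4.97%) a siCONT-only one. H3K4me3 was in siDLEU1 cells alone at 6 genes (3.73%, against 1.49% of all protein-coding genes) and in siCONT cells alone at 1, IRX5. PROX1, a regulator of lymphatic endothelial and liver cells, had the strongest of the siDLEU1-only regions at homeobox genes. It was 638 bp wide with 50 fragments over the TSS (chr1:214161210-214161847) and 179 kb from any siCONT H3K4me3 region. H3K27ac was called there in both lists, with 66 fragments in siCONT and 40 in siDLEU1 cells. These H3K27ac regions stood at percentile 32.7 and 28.5 of their lists and were 736 and 851 bp wide, in the same order. The other 5 genes marked in siDLEU1 cells alone, GBX2, HOXB9, HOXD10, MEIS3 and PAX6, rested on 24, 27, 19, 24 and 16 fragments, where the median of the whole siDLEU1 H3K4me3 list was 41. The HOXD10 region also served HOXD11, which had stronger H3K4me3 in both lists.

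PAX8, a regulator of thyroid and kidney development, had a siDLEU1-only region of 1034 bp with 48 fragments (chr2:113997386-113998419). The region was near an internal TSS and not the canonical one. Its summit lay 1667 bp downstream of that internal TSS, in a non-coding exon of PAX8-AS1. Over all PAX8 TSSs, the strongest H3K4me3 region stood at percentile 18.7 with 24 fragments in siCONT cells. In siDLEU1 cells it stood at percentile 85.4 with 78 fragments. POU2F3, a regulator of keratinocyte and tuft cell differentiation, had 2 pieces, with 30 and 19 fragments, and POU2F2, which encodes a related factor of B cells, had 1 with 34. Neither PAX8, POU2F2 nor POU2F3 had H3K27ac at a TSS in either list.

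Of 59 interferon-stimulated genes, 3 (5.08%) had a siDLEU1-only region, and 20 (33.9%) had a siCONT-only one. The genes with siDLEU1-only regions were IFI16, IRF1 and DDX60L, with 4 regions of 22 to 26 fragments, all within 1 kb of a siCONT region and none with H3K27ac. No gene of this list had H3K4me3 in siDLEU1 cells alone, and 5, namely BST2, MX2, OASL, SAMD9L and XAF1, had it in siCONT cells alone.

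The other lists were small, and so were their counts. Of 30 p53 target genes 3 (10%) had a siDLEU1-only region and 5 (16.7%) a siCONT-only one. The shares of all protein-coding genes were 6.99% and 11.6%. The 3 genes were EDA2R, PLK2 and PLK3, with 20 to 25 fragments. The pieces at PLK2 and PLK3, which encode polo-like kinases, were overlapped by H3K27ac in siDLEU1 cells and not in siCONT cells, although both genes had H3K27ac elsewhere at a TSS in siCONT cells. The strongest H3K27ac region of PLK2 stood at percentile 91.4 in siCONT and 38.4 in siDLEU1 cells. At PLK3 the order was the other way, with percentile 55.6 in siCONT and 84.9 in siDLEU1 cells. COL5A1, a fibrillar collagen gene, was the 1 of 27 fibroblast genes (3.70%) with a siDLEU1-only region, and 2 had a siCONT-only one. CD68, a macrophage gene, was the 1 of 26 blood and endothelial cell genes (3.85%), and 2 had a siCONT-only region. Of 36 nervous system genes 2 (5.56%) had a siDLEU1-only region and 3 (8.33%) a siCONT-only one. The 2 were CNTN1 with 33 fragments and ELAVL2 with 29.

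Zinc finger genes named ZNF had siDLEU1-only regions at 28 of 508 genes (5.51%) and siCONT-only regions at 57 (11.2%). The strongest was in ZNF33B, which had 3 pieces at an internal TSS, the highest with 37 fragments (chr10:43090075-43090754), 41.3 kb from a siCONT region. Pieces at ZNF410, ZNF318 and ZNF444 had 34, 34 and 33 fragments. Of 80 cytosolic ribosomal protein genes 6 (7.50%) had a siDLEU1-only region and 12 (15%) a siCONT-only one. The 6 were RPL3, RPL4, RPL18, RPL27A, RPS2 and RPS4X. Their siDLEU1-only regions all lay within 1 kb of a siCONT region and had 15 to 23 fragments. Of 399 olfactory receptor genes, which are expressed mainly in the nose, 0 had a siDLEU1-only region and 1 a siCONT-only one.

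Counted by gene, 579 genes (1.5% of 38690) had H3K4me3 at a TSS in siDLEU1 cells alone and 699 (1.81%) in siCONT cells alone. Of the 579, 299 were protein-coding and 280 lncRNAs, and 558 had a siDLEU1-only region. The other genes with a siDLEU1-only region, 1454 of 2012, also had a siCONT region at one of their TSSs. After NLRP10 and MGAT5B, the strongest protein-coding genes marked in siDLEU1 cells alone were WDR54 with 65 fragments, C1orf226 with 81, TROAP with 62, ETV4 with 61, DNAI2 with 55 and PROX1 with 50.

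These genes fell into those with and those without H3K27ac. TROAP, a mitotic spindle gene, had H3K27ac at its siDLEU1-only region in both lists, as did NEURL1, a ubiquitin ligase gene with 48 fragments, and SCCPDH with 49. DNAI2, an axonemal dynein gene, and CKMT2, which encodes the creatine kinase of striated muscle mitochondria, had none in either list. Over all 579 genes, 228 had H3K27ac at a TSS in siCONT cells, 194 in siDLEU1 cells and 343 in neither. Of the 699 genes marked by H3K4me3 in siCONT cells alone, 336 had H3K27ac in siCONT cells and 196 in siDLEU1 cells. Over all 20098 protein-coding genes the numbers were 12362 and 11754, whereas the 579 genes include 280 lncRNAs.

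DLEU1 itself had 3 siDLEU1-only regions at TSSs inside the gene, on chromosome 13. They had 43, 27 and 35 fragments (chr13:50798384-50798666, chr13:50798912-50799270 and chr13:50970563-50970833), and all lay in introns without H3K27ac. This gene was chosen after its values were seen. The siRNA acts on RNA, so these regions do not check the knockdown.

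In both H3K27ac lists, a smaller share of siDLEU1-only than of shared regions was overlapped. In siCONT cells 610 of 1999 (30.5%, 28.5 to 32.6) were overlapped by H3K27ac, and in siDLEU1 cells 486 (24.3%, 22.5 to 26.2), against 71.9% and 64.3% of all siDLEU1 TSS regions and 76.0% and 68.3% of the shared ones. Weighted to the strength of the siDLEU1-only regions, the shared values were 54.7% and 39.9%. Of the siDLEU1-only regions, 1357 (67.9%) had H3K27ac in neither list.

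H3K27ac called after knockdown alone was rare in each group of TSS regions, and its share was highest among the siDLEU1-only ones. The background given here is the share over all siDLEU1 TSS regions, which include the siDLEU1-only ones. Of the 1999 regions, 454 had H3K27ac in both lists, 156 in siCONT alone (7.80%, background 7.88%) and 32 in siDLEU1 alone (1.60%, 1.14 to 2.25, background 0.338%). Among shared regions 43 (0.213%) had it in siDLEU1 alone, and among siCONT-only regions 7 (0.227%). These shares were not weighted to strength, and siDLEU1-only regions were weaker at the median than shared ones. Of the siDLEU1-only regions with H3K27ac in siCONT cells, 25.6% had none in siDLEU1 cells, against 10.4% of shared regions, 27.9% of shared regions weighted to the same strength, and 55.6% of siCONT-only regions.

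The H3K27ac values differed with the distance to the siCONT list. Flanking regions were overlapped by H3K27ac at 36.8% in siCONT and 26.9% in siDLEU1 cells, regions at 1 to 5 kb at 11.2% and 11.6%, and distant regions at 27.6% and 24.6%. Where both lists had H3K27ac, its median percentile was 39.0 in siCONT and 34.5 in siDLEU1 cells, and the median change was -3.52 points, against -5.82 at shared regions and -15.4 at siCONT-only regions. By distance, the median change was -7.86 points at the flanking siDLEU1-only regions, 4.72 at those 1 to 5 kb away and -0.0516 at the distant ones. These medians rested on 267, 22 and 165 regions with H3K27ac in both lists. The H3K27ac regions themselves were narrower in siDLEU1 cells, with a median of 433 bp against 678.5 bp at the siDLEU1-only regions, and 725 bp against 1053 bp at the shared ones.

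**Figure D5:**
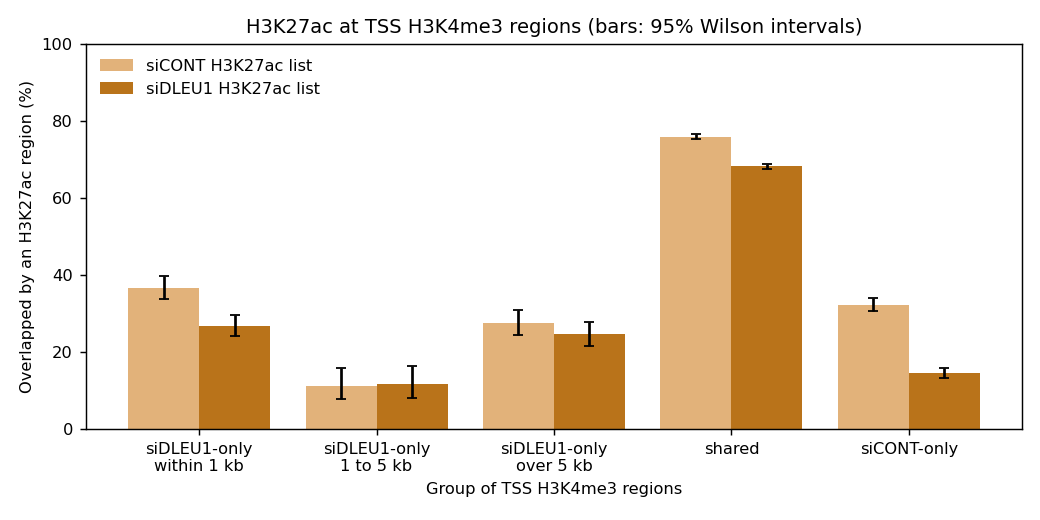
Bars give the share (%) of TSS H3K4me3 regions overlapped by an H3K27ac region of the siCONT (light) or siDLEU1 (dark) list, for siDLEU1-only regions by distance to the siCONT list, shared regions and siCONT-only regions, with 95% Wilson intervals. The shared bars stand at 76.0% and 68.3%, above all siDLEU1-only bars, and the siCONT-only bars fall from 32.4% to 14.6%.

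Of the 32 regions with H3K27ac in siDLEU1 cells alone, the strongest lay near the lncRNA ENSG00000263105 and at IL11, a cytokine gene. The IL11 region (chr19:55881164-55881795, intronic, 176 bp downstream of the TSS) had 41 H3K4me3 fragments, and the H3K27ac region that overlapped it also had 41 fragments and was 595 bp wide. IL11 had neither mark at a TSS in siCONT cells. TRNP1, a nuclear protein gene, had the same pattern, with 37 H3K4me3 and 50 H3K27ac fragments (chr1:27320232-27320708).

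At the other named regions of this kind, control cells had H3K4me3 elsewhere at the gene. DHRS4L2, a dehydrogenase gene, had 48 H3K4me3 and 41 H3K27ac fragments (chr14:24438687-24439306), and FSTL3, which encodes an activin-binding protein, had 34 and 33 (chr19:676736-677190). TIAL1, an RNA-binding protein gene, had 35 and 43 at a piece upstream of its TSS (chr10:121356782-121357033), 217 bases from a siCONT region with 139 fragments. At TIAL1 the strongest H3K27ac region of the gene stood at percentile 87.9 in siCONT and 85.6 in siDLEU1 cells.

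The sequence under siDLEU1-only summits was poorer in GC and in CpG than under shared summits at the median. Of the windows printed, those of CDH1 and CDH3 lie under the siDLEU1-only median of CpGs and those of MGAT5B, DHRS4L2 and TIAL1 above it. In windows of 201 bases the median GC content was 55.2%, against 63.7% in shared, 53.2% in siCONT-only and 48.3% in siDLEU1-only regions away from TSSs. Weighted to the same strength, shared regions came to 57.3%. The median number of CpGs was 5 in siDLEU1-only and 13 in shared windows, and 152 siDLEU1-only windows (7.60%) had 0 CpGs, against 2.31% of shared ones. Flanking regions had a median of 6 CpGs and distant ones 4, and regions that contained a TSS had 9.5.

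A search for 4 motifs on both strands gave siDLEU1-only shares above those of shared windows for AP-1, CCAAT and TATAAA. The AP-1 motif TGANTCA was in 3.95% of siDLEU1-only, 2.48% of shared and 4.73% of siCONT-only windows, and in 2.62% of all siDLEU1 TSS windows. For CCAAT the shares were 17.7%, 13.2% and 19.9%, with 13.6% over all. For TATAAA they were 6.85%, 3.22% and 8.53%, with 3.54% over all. For TTTC followed by any 2 bases and TTTC, as in an interferon response element, they were 2.15%, 1.60% and 2.27%, with 1.65% over all. For each of the 4 motifs the 95% Wilson intervals of the siDLEU1-only and siCONT-only shares overlapped (3.18 to 4.90 and 4.04 to 5.54 for AP-1). The siDLEU1-only interval of the interferon element (1.60 to 2.88) also overlapped the shared one (1.43 to 1.78). Overlap of intervals does not show that shares were equal, and the differences between the groups were not tested. The GC content of the windows, 55.2%, 63.7% and 53.2% in the same order of groups, moved with these shares, and its part in them was not tested. A match describes the letters of a window and is not a bound site.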

How the data were processed

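ChIP-seq of H3K4me3 and H3K27ac was analysed in HSC3 cells 72 h after transfection with siDLEU1-2 or a control siRNA, with 1 library each. Reads from an Ion Proton System were aligned by the authors to hg19 (bowtie2), and MACS2 called peaks per library, which the submitters' processing notes also name. The settings and the control library of MACS2 are not given in the sources used here, and neither input library was used here. The deposited lists give the fold ratio over local background at the summit. They also give the −log10 p and −log10 q that MACS2 gave the authors. The deposited score, which MACS2 writes for display in genome browsers, was left out.

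Regions on chromosomes 1 to 22 and X were compared by an overlap of 1 bp. No region ended past its chromosome in GRCh37. TSSs were those of all 226503 transcripts of 38690 GENCODE 44lift37 genes, with 1 kb on either side. Summit fragments were solved from fold and p with 1 scale factor for each list, and the p of 100% of regions was matched. Shares have 95% Wilson intervals, which cover counting only. Overlap, TSS distance and fragment recovery were tested on simulated data. For fragments the simulation used the same formula and scale factor as the recovery, so it does not check either of them. More than 1 fragment number matched the p in 0.868% to 2.48% of regions, depending on the list.

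Named regions were the 10 with the highest fold, the 10 with the most fragments, the 5 widest, the 6 strongest with H3K27ac in siDLEU1 cells alone, the 6 strongest over 5 kb from a siCONT region, up to 4 from each of 10 gene lists, and those nearest the overlap limit. Each was named by its nearest TSS. Other named genes, the 5 sequences and the 6 loci drawn were chosen after their values were seen, and 1 gene and 1 sequence are not reported here. The regions and lists were chosen with earlier results of these data known. The alternatives were 17 other settings of window, threshold, overlap, annotation and rank. Python 3.11.15, numpy 2.4.6, pandas 2.3.3, scipy 1.17.1, pysam 0.24.0 and matplotlib 3.10.9 were used.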

Additional observations from a re-analysis of the deposited data

How the results depend on the processing

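Of 94 values recomputed under 17 settings, 33 stayed within the counting interval of the reported value, or within 1.5 times a reported count, and 61 did not. The cause of these shifts was not tested beyond what each setting changes by construction. The values were, in this order where given, the number of siDLEU1-only regions, their share of siDLEU1 TSS regions, the genes marked in siDLEU1 cells alone, the number of siCONT-only regions, the shares of siDLEU1-only regions with siCONT and with siDLEU1 H3K27ac, with a TSS inside and within 1 kb of a siCONT region, and the median width and percentile.

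With 500 bp on either side of a TSS, the share was 7.70%, H3K27ac 36.5% and 29.5%, and a TSS inside 31.5%. With 3 kb, there were 3298 regions (12.02%) and 5277 siCONT-only ones, with H3K27ac at 19.0% and 15.1%, a TSS inside 14.9%, 48.6% within 1 kb, and a percentile of 23.5. With a −log10 q of at least 10 in the siDLEU1 list, there were 214 regions (1.45%), 92 genes and 7971 siCONT-only regions, with H3K27ac at 37.9% and 33.2%, a TSS inside 47.2%, 50.5% within 1 kb, a width of 488.5 bp and a percentile of 60.8. With that threshold in both lists, the share was 12.8%, with 1045 genes and 1442 siCONT-only regions. When no siCONT region was allowed within 1 kb, 946 regions (4.26%) and 1267 siCONT-only ones remained, with H3K27ac at 23.6% and 21.5%. Requiring 50% of each region to be shared gave 5618 (25.3%) and 7202. With regions within 1 kb stitched, there were 826 (5.83%) and 1055.

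With 1 TSS per gene, there were 1227 regions (6.89%) and 1741 siCONT-only ones, with H3K27ac at 44.8% and 35.9%, a TSS inside 16.2%, 59.6% within 1 kb, a width of 275 bp and a percentile of 28.4. With protein-coding genes only, the share was 7.84%, with 299 genes, H3K27ac at 36.7% and 29.5%, and 57.0% within 1 kb. With the 24162 genes whose symbol has a curated RefSeq transcript, the share was 8.30%, with 383 genes, H3K27ac at 33.8% and 26.95%, and 54.9% within 1 kb. H3K27ac within 1 kb gave 46.3% and 43.1%, and H3K27ac with a −log10 q of at least 10 gave 20.2% and 10.2%. Ranked by −log10 p the median percentile was 24.3, and by fragments 21.7.

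No paired analysis was possible because each siRNA and mark had 1 library, and no replicate could be left out for the same reason. With medians of 26 fragments for siDLEU1-only and 29 for siCONT-only regions, and weakest calls of 14 and 17 fragments in the lists, a region in 1 list alone does not show that the mark was absent in the other.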

Other observations

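The siDLEU1-only TSS regions were spread over all chromosomes analysed, from 6.996% of siDLEU1 TSS regions on chromosome 21 (17 of 243) to 11.97% on chromosome 18 (37 of 309). When regions within 10 kb were joined, they formed 1717 loci, of which 238 held 2 or more regions, 35 held 3 or more, and the most in 1 locus was 6. Of the 10074 siDLEU1-only H3K4me3 regions away from TSSs, 108 (1.07%) were overlapped by H3K27ac in siCONT cells and 50 (0.496%) in siDLEU1 cells.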
